A study of Homo sapiens with 30 samples.

Results

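The genes of oxidative phosphorylation were followed in RNA of SW1783, an established cell line from a human astrocytoma, exposed to herbal extracts for 24 h. They were taken by symbol: nuclear genes of the NDUFA, NDUFB, NDUFC, NDUFS, NDUFV, SDH, UQCR, COX4 to COX8 and ATP5 families, and the protein-coding genes of the mitochondrial chromosome. The rule found 101 of the 60675 genes in the table, 88 nuclear and 13 mitochondrial. By complex, the nuclear set held 36 genes of complex I, 4 of complex II, 9 of complex III, 18 of complex IV and 21 of complex V. The mitochondrial set held 7, 0, 1, 3 and 2. NDUFA4, named for complex I, was placed with complex IV, where the protein is found. The counts also hold genes that the rule takes by symbol alone. These are the retrocopies (copies made through RNA) UQCRHL in complex III and ATP5MGL in complex V, and the readthrough gene ATP5MF-PTCD1 in complex V.

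The multi-herb formulas Palmul-tang and Sibjeondaebo-tang, both made with hot water, were given at 20, 100 and 500 µg/mL with 3 libraries per dose. For Samul-tang, also made with water, and for Poria Cocos and Atractylodis Rhizoma, made with ethanol, a dose had a single library. Vehicle had 3 libraries, with 0.1% DMSO in the sample labels and 2% in the series' design text. The 30 libraries held 22568739 to 37822331 counts. No label says that the libraries of a group were separate cultures, so the p-values reflect no more than the spread among libraries, which may be technical. The vehicle libraries carry a code in their labels that no treated library has. Treatment and that code cannot be told apart in any comparison with vehicle. The start of the code also differs between the formulas, Samul-tang and the ethanol extracts. Differences between these cannot be told apart from it either. The start of the code does not enter comparisons between doses.

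The respiratory chain passes electrons from NADH through complex I, or from succinate through complex II, to ubiquinone, and on through complex III and cytochrome c to complex IV, which reduces oxygen. Complexes I, III and IV pump protons across the inner mitochondrial membrane, and complex V, the ATP synthase, uses their return to make ATP. The mitochondrial chromosome encodes a few membrane subunits and is read as long polycistronic transcripts, while the other subunits are nuclear and are imported. Many nuclear subunit genes carry binding motifs of NRF1 or of ETS family factors such as GABP before their start.

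Of the 88 nuclear genes, 69 had a RefSeq promoter (GRCh38.p14), read over the 250 bases before the start on both strands. The NRF1 motif (GCGC, any base, then TGCGC) stood in 15 of these 69 (21.7%), against 5.53% of 27305 promoters in the table. The ETS motif CCGGAAG stood in 17 (24.6%), against 8.82%. The YY1 motif AAGATGGCG stood in 1 (1.4%, against 0.64%) and TATAAA in 7 (10.1%, against 11.13%). The NRF1, ETS or YY1 letters stood in 30 of the 69 (43.5%, against 13.9%), and the median GC content was 60.8%, against 58.0% over all promoters. A match of letters is a description and shows no binding. A promoter with 2 NRF1 matches and one with 2 ETS matches are given in lower case, with the matches in capitals, since both genes are among those that fell against vehicle. Both run 5′ to 3′ on the gene's strand and stop before the first annotated exon. NDUFB4, an accessory subunit of complex I, lies on the plus strand with chr3:120596086-120596308 shown. UQCR11, a small subunit of complex III, lies on the minus strand with chr19:1605491-1605712 shown. The full 250 bases of UQCR11 also held 2 NRF1 matches, which are not within the stretch shown. They were chosen after their values were seen.
NDUFB4: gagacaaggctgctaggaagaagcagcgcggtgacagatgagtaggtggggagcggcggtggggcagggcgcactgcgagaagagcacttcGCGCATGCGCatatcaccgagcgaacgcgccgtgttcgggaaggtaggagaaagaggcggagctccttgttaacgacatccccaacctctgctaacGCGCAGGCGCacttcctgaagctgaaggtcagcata
UQCR11: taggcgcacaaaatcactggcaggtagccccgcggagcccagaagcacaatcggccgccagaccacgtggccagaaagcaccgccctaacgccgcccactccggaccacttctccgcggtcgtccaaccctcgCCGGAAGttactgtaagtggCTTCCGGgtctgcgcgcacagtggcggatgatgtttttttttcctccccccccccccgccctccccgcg

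The line expressed both gene sets strongly. The 13 mitochondrial genes took 5.03% to 6.26% of all counts (median 5.71%) and the nuclear set 0.647% to 0.724% (median 0.684%). Per kilobase of transcript, the mitochondrial genes had a median of 3859 CPM per kb (CPM, counts scaled to library size, here averaged over the 30 libraries) and the tested nuclear genes 60.7. The highest were the core subunits of complex IV, MT-CO1 with 9503, MT-CO2 with 9236 and MT-CO3 with 8643 CPM per kb. MT-CYB, the cytochrome b of complex III, stood at 3946, and MT-ND4 and MT-ND1 of complex I at 5665 and 3828 CPM per kb. MT-ND6, the only one of the 13 read from the other strand, was the lowest of the 13 with 638 CPM per kb. Among nuclear genes, ATP5MF, a membrane subunit of ATP synthase, had 609, COX8A, a small subunit of complex IV, 291, and ATP5F1B, the catalytic beta subunit of ATP synthase, 250 CPM per kb. Values per kb rest on the annotated length taken for each gene, 305 bases for ATP5MF, 1839 for ATP5F1B and 5818 for ATP5F1A. By mean CPM, ATP5F1B with 460 and ATP5F1A with 270 stood above ATP5MF with 186. 5 nuclear genes did not pass the filter on low counts and were not tested, the muscle, lung and testis forms COX4I2, COX6A2, COX7A1 and COX8C among them, and ATP5MGL. COX4I2 was at 0 CPM in all libraries but 1, with 0.037 CPM there, and COX7A1 reached 0.316 CPM. Their widely expressed counterparts COX4I1 and COX7A2 stood at 127 to 147 CPM and 90.2 to 109 CPM.

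Of the astrocyte markers, VIM, CD44, SLC1A3 and GLUL were present, with VIM at 4390 to 5674 CPM, while GFAP, S100B, AQP4 and ALDH1L1 stayed at or below 0.183 CPM. The microglial AIF1 and oligodendrocyte MOG were at or below 0.07 CPM. 2 libraries of Sibjeondaebo-tang stood apart. Replicate 3 at 500 µg/mL differed from replicates 1 and 2 by a chi-square per gene of 8.14 and 7.42, while these differed by 2.64 from each other. Replicate 1 at 100 µg/mL differed from replicates 2 and 3 by 6.68 and 4.16, while these differed by 3.76, and the pairs of the other groups by 2.14 to 4.13. The counts of called genes that rest on either library are given with and without it.

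Between libraries, mitochondrial genes moved together more than nuclear ones. The coefficient of variation over the 30 libraries had a median of 8.71% for mitochondrial and 5.80% for nuclear genes. As a description over the same 30 libraries, the median Pearson correlation of log2 CPM was 0.62 over 78 pairs of mitochondrial genes, 0.19 over 3403 nuclear pairs and -0.07 between the sets. These libraries share groups, scaling and total depth. The genes most like MT-ND1 over the 30 libraries were MT-ND5 (0.85), MT-CYB (0.78), MT-ND4 (0.78), MT-CO3 (0.74) and MT-ND2 (0.71). The genes most like the median nuclear member were LSM7 (0.83), CHCHD2 (0.82), COPRS (0.81), RPLP1 (0.79) and SNX17 (0.79). MT-ATP8 varied most of the 13, with 19.2%. It shares 46 bases with MT-ATP6, chrM:8527-8572 on the plus strand in GENCODE, so reads there can be assigned to either gene, and the shared stretch is shown for that reason.
MT-ATP8 and MT-ATP6: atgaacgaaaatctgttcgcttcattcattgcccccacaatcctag

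**Figure D1:**
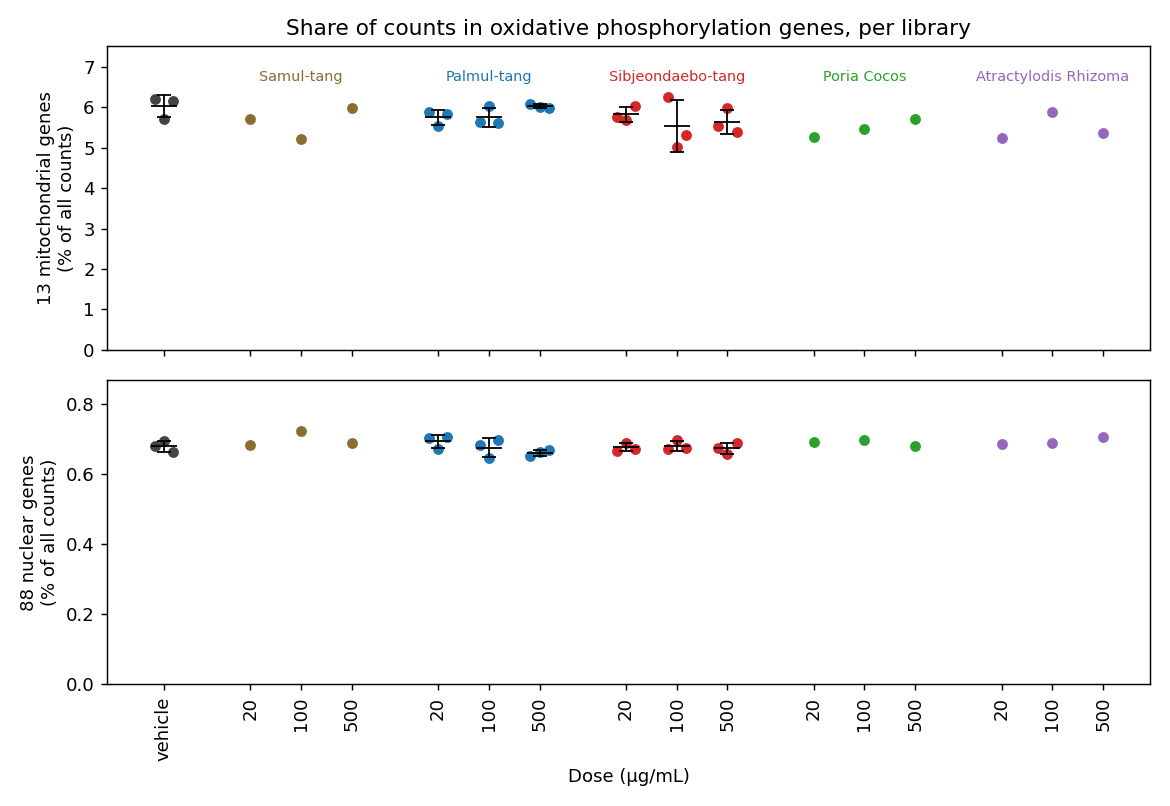
Share of all counts (%, vertical axes from 0) in the 13 mitochondrial genes (top) and the 88 nuclear genes (bottom), by dose in µg/mL with vehicle at the left. Points are libraries, and bars are means ± SD where a group has 3. The mitochondrial share lies between 5.03% and 6.26% and the nuclear share between 0.647% and 0.724% over all groups.

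As the plot of shares by group shows, neither share ordered the groups by dose in every extract. In Palmul-tang the mitochondrial share was 5.75 ± 0.195% at 20, 5.75 ± 0.233% at 100 and 6.03 ± 0.0463% at 500 µg/mL (SD, n = 3 each), and the nuclear share was 0.694 ± 0.0185%, 0.676 ± 0.0266% and 0.662 ± 0.00819%. In Sibjeondaebo-tang the mitochondrial share was 5.83 ± 0.186%, 5.53 ± 0.648% and 5.64 ± 0.305%, and the nuclear share 0.677 ± 0.0114%, 0.682 ± 0.014% and 0.675 ± 0.0155%. Vehicle stood at 6.02 ± 0.276% and 0.680 ± 0.016% (n = 3). The single libraries of the other extracts had mitochondrial shares of 5.72%, 5.21% and 5.99% in Samul-tang, 5.27%, 5.47% and 5.70% in Poria Cocos and 5.23%, 5.88% and 5.36% in Atractylodis Rhizoma at 20, 100 and 500 µg/mL. In bulk RNA, fewer cells of a type and less RNA per cell cannot be told apart.

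The first comparison set the highest dose of each formula against its lowest. In Palmul-tang, 2 of 83 tested nuclear genes fell and 0 rose, and 0 of the 13 mitochondrial genes were called (quasi-likelihood test of edgeR, p adjusted by Benjamini-Hochberg over 17839 genes, threshold 0.05). Of all genes tested, 5.3% were called, 2.83% higher and 2.47% lower, so the 2 nuclear calls lie near the background share. ATP5MG (chromosome 11, 118401154 to 118431496 in GRCh38), the g subunit in the membrane part of ATP synthase, had 113, 112 and 118 CPM at 500 µg/mL, against 135, 120 and 133 CPM at 20 µg/mL. Its groups did not overlap, and its log2 fold change was -0.18 ± 0.050 (SE, adjusted p = 0.0320). SDHD (chromosome 11, 112086773 to 112120013), a membrane anchor of complex II, had 44.2, 44.7 and 47.9 CPM at 500, against 51.9, 48.6 and 53.0 CPM at 20 µg/mL. These did not overlap either, and the change was -0.17 ± 0.050 on the log2 scale (adjusted p = 0.0448). SDHD shares 26 exon bases with TIMM8B on the opposite strand and 319 with AP002884.3 on its own. ATP5MG shares 261 with AP001267.1 on the opposite strand and 277 with AP001267.5 on its own. Reads there can be assigned to either gene, and the strand used in counting is not given in the sources used here. Neither call held without Palmul-tang 500 replicate 1 or 2 or Palmul-tang 20 replicate 1 or 3, with adjusted p between 0.137 and 0.217.

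The remaining nuclear genes gave small values, mostly on the same side. The log2 fold change was below 0 in 69 of 83, with a median of -0.07, while the median of all genes was -0.001. By complex the medians were -0.06 in I, -0.07 in II, -0.10 in III, -0.09 in IV and -0.07 in V. All 9 genes of complex III were below 0, the retrocopy UQCRHL included. 25 nuclear genes had an unadjusted p under 0.05, and 19 had lower values at 500 with no overlap, against 2 with higher values. The share of all genes with such a p or with no overlap is not given here, so neither count has a background beside it. COX7A2L, which takes part in joining complexes III and IV, had 49.6, 50.8 and 50.9 CPM at 500 and 56.5, 57.4 and 54.9 CPM at 20 µg/mL, with no overlap (-0.16 ± 0.051, adjusted p = 0.0663). Core or catalytic subunits among the 14 members named whatever their values were not called. ATP5F1B had a log2 fold change of -0.04 ± 0.034, SDHA, the flavoprotein of complex II, -0.02 ± 0.032, NDUFS1, the largest iron-sulfur subunit of complex I, -0.04 ± 0.039, and UQCRC1, a core subunit of complex III, -0.03 ± 0.035. NDUFV1, which binds NADH in complex I, had -0.05 ± 0.044, and ATP5F1A, the alpha subunit of the ATP synthase head, -0.08 ± 0.037 (adjusted p = 0.263). Of these 6, ATP5F1B, NDUFS1, NDUFV1 and ATP5F1A were lower with no overlap. Cytosolic ribosomal proteins, genes of similar short and abundant transcripts, had a median of -0.07 with 0 higher and 3 lower of 83, and mitochondrial ribosomal proteins -0.004 with 1 higher and 0 lower of 78.

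The mitochondrial genes lay on the other side in Palmul-tang without any call. Their median log2 fold change was 0.09, 10 of 13 were above 0 and none had an unadjusted p under 0.05. MT-ND2, a complex I core subunit, had 4482 ± 97.1 CPM at 500 and 3967 ± 361 CPM at 20 µg/mL (SD, n = 3 each, 0.18 ± 0.098, adjusted p = 0.406). MT-ND2, MT-ND4, MT-ATP6, MT-ND1 and MT-ND5 were higher at 500 µg/mL with no overlap, again with no share of all genes beside it. MT-CO1 had 14430 ± 412 CPM at 500 and 14610 ± 554 CPM at 20 µg/mL (-0.02 ± 0.055), and MT-CO3 stood at 0.01 ± 0.069. The typical 95% interval was ± 0.18 for a mitochondrial and ± 0.10 for a nuclear gene. In a fit of the compared groups alone, MT-ND4 (0.13, adjusted p = 0.00259) and MT-ATP6 (0.12, adjusted p = 0.00842) were called higher.

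In Sibjeondaebo-tang, 0 nuclear and 0 mitochondrial genes were called between 500 and 20 µg/mL, where 6.24% of all genes were, 3.45% higher and 2.79% lower. By DESeq2's Wald test it was 1 nuclear gene, and 3 nuclear and 0 mitochondrial genes had an unadjusted p under 0.05 by edgeR. The median log2 fold change was 0.005 over the nuclear set, with 44 of 83 above 0, and -0.02 over the mitochondrial set. SDHD had 48.3, 46.9 and 43.9 CPM at 500, against 46.8, 51.5 and 48.2 CPM at 20 µg/mL, and ATP5MG 123, 128 and 119, against 117, 126 and 119 CPM. Both overlapped between the doses. Without Sibjeondaebo-tang 500 replicate 3, which stood apart, the nuclear median was -0.02 and 1 nuclear gene was called, where 6.53% of all genes were. It was NDUFS8, an iron-sulfur core subunit of complex I (-0.17 ± 0.049, adjusted p = 0.0310, against -0.08 with all libraries). Without Sibjeondaebo-tang 500 replicate 1 it was 2 genes. The difference between the formulas' dose changes, Sibjeondaebo-tang minus Palmul-tang, was called for 0 genes in the whole table by edgeR and 0 by DESeq2, with 716 of 17839 at an unadjusted p under 0.05, and for 1 gene, no member, without Sibjeondaebo-tang 500 replicate 3. Its median over the nuclear set was 0.07, with 62 of 83 above 0 and 9 with an unadjusted p under 0.05, and -0.08 over the mitochondrial set. Directly compared at 20, 100 and 500 µg/mL, the formulas differed in 0 genes each time by edgeR (0% of all genes), and in 0 members by DESeq2, with 6, 3 and 8 nuclear genes at an unadjusted p under 0.05. At 100 against 20 µg/mL 0 members were called in either formula by edgeR or DESeq2. The background was 0.163% in Palmul-tang (0.146% higher, 0.0168% lower) and 0.207% in Sibjeondaebo-tang (0.185% higher, 0.0224% lower), and 4 and 0 members had an unadjusted p under 0.05. At 500 against 100 µg/mL 0 members were called again by both tools, against 2.49% of all genes in Palmul-tang (1.35% higher, 1.15% lower) and 2.91% in Sibjeondaebo-tang (1.67% higher, 1.24% lower). Of the nuclear genes, 7 and 5 had an unadjusted p under 0.05 there. Except for the difference between the dose changes, the counts at an unadjusted p given here have no share of all genes beside them. Without Sibjeondaebo-tang 100 replicate 1, which stood apart, MT-ATP6 of ATP synthase was called: lower at 100 than at 20 µg/mL (-0.21 ± 0.046, adjusted p = 0.0430), higher at 500 than at 100 µg/mL (0.27 ± 0.046, adjusted p = 0.000322) and lower in Sibjeondaebo-tang than in Palmul-tang at 100 µg/mL (-0.26 ± 0.046, adjusted p = 0.0323). All 3 values use the same pair of Sibjeondaebo-tang 100 libraries. The shares of all genes above are those with all libraries, and the shares without that replicate are not given here.

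**Figure D2:**
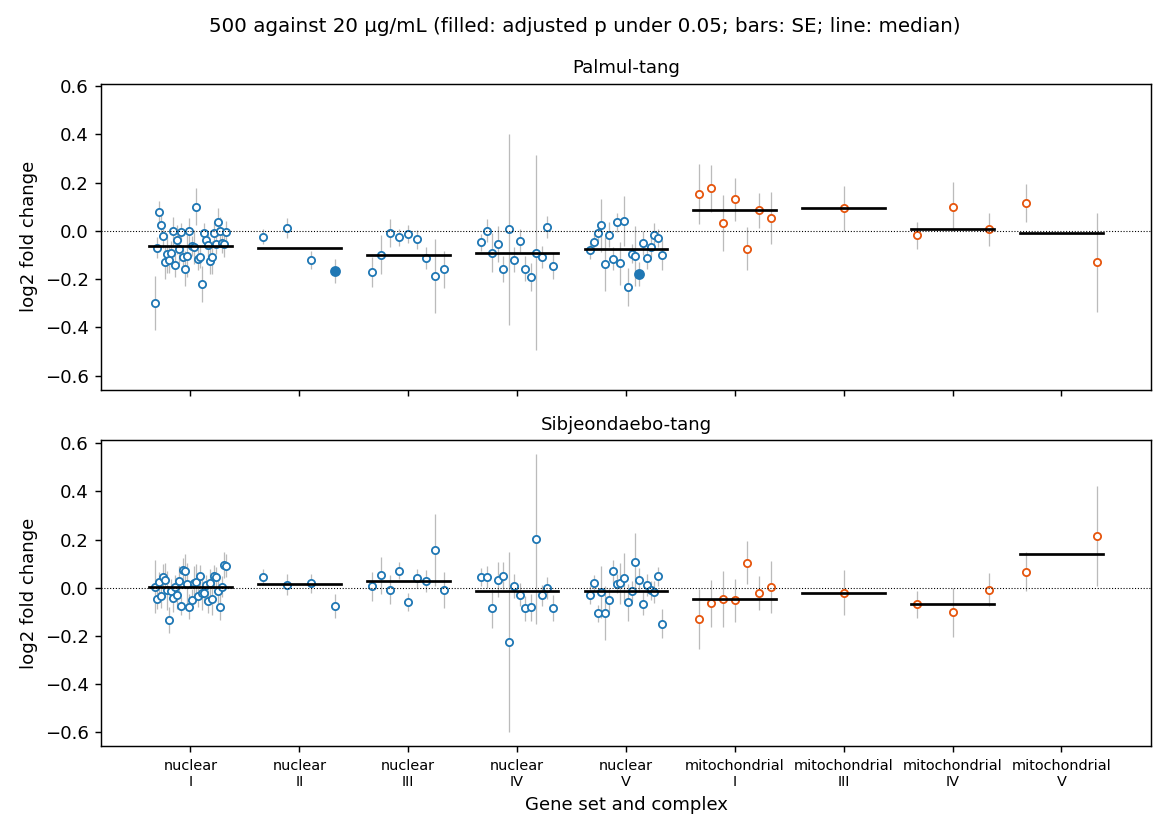
Log2 fold change at 500 against 20 µg/mL for each tested gene, by set and complex, in Palmul-tang (top) and Sibjeondaebo-tang (bottom). Filled points passed an adjusted p of 0.05, grey bars are standard errors and black lines medians. In Palmul-tang the nuclear medians lie between -0.10 and -0.06 with 2 filled points, and in Sibjeondaebo-tang none is filled.

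Against vehicle, many nuclear subunit genes differed, mostly downward. Palmul-tang at 500 µg/mL had 4 higher and 30 lower of 83 nuclear genes, and 27.8% of all genes were called (12.9% higher, 14.9% lower). Sibjeondaebo-tang at 500 µg/mL had 5 higher and 22 lower, where 25.1% of all genes were called (11.7% higher, 13.3% lower). Without Sibjeondaebo-tang 500 replicate 3, the counts there were 5 higher and 26 lower, and 29% of all genes were called. The median log2 fold change of the nuclear set was -0.09 in Palmul-tang and -0.04 in Sibjeondaebo-tang, with all genes at 0.001 and 0.003. All these comparisons use the same 3 vehicle libraries, so their values are given side by side and not as repeats of each other.

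The lower genes with the smallest p came from complexes I, III, IV and V. COX8A (chromosome 11, 63974607 to 63976543), the smallest subunit of complex IV, had 140, 147 and 145 CPM in Palmul-tang and 136, 132 and 155 CPM in Sibjeondaebo-tang at 500 µg/mL, against 204, 192 and 181 CPM in vehicle. Every treated library was below every vehicle library, with log2 fold changes of -0.42 ± 0.045 (adjusted p = 1.57e-08) and -0.45 ± 0.045 (adjusted p = 3.99e-09), and -0.52 ± 0.039 in Sibjeondaebo-tang without replicate 3. It shares 175 exon bases with AP000721.1 on its own strand. NDUFA11 (chromosome 19, 5891276 to 5904006), an accessory membrane subunit of complex I, had 79.0, 78.8 and 78.1 CPM in Palmul-tang and 76.9, 71.1 and 86.0 CPM in Sibjeondaebo-tang, against 95.6, 98.0 and 94.3 CPM in vehicle. It fell in both (-0.29 ± 0.045, adjusted p = 8.96e-06, and -0.30 ± 0.045, adjusted p = 5.47e-06), and it shares 467 exon bases with AC024592.3 on its own strand and 120 with AC024592.1 on the opposite one. NDUFS8 (chromosome 11, 68030617 to 68036644) had 71.5, 68.5 and 63.7 CPM in Palmul-tang and 61.6, 63.6 and 74.3 CPM in Sibjeondaebo-tang, against 88.3, 89.2 and 86.9 CPM in vehicle (-0.38 ± 0.057 and -0.41 ± 0.057). UQCR10 (chromosome 22, 29767369 to 29770413), a small subunit of complex III, had 90.1, 91.0 and 94.6 CPM in Palmul-tang and 103, 95.4 and 102 CPM in Sibjeondaebo-tang, against 127, 127 and 120 CPM in vehicle (-0.44 ± 0.062 and -0.31 ± 0.061). NDUFB9 of complex I fell by 0.36 and 0.33 on the log2 scale and ATP5MF by 0.25 and 0.22. NDUFB9 shares 677 exon bases with MTSS1 and 187 with TATDN1 on the opposite strand, and ATP5MF 177 with its readthrough gene ATP5MF-PTCD1. NDUFA7, another complex I accessory subunit, which shares 456 exon bases with AC010323.1 on its own strand and 89 with RPS28 on the opposite one, had -0.21 ± 0.058 and -0.31 ± 0.058, and its call in Palmul-tang was lost without vehicle replicate 2 (adjusted p = 0.069) and with the trend of GC content and length removed (-0.09, adjusted p = 0.247). ATP5IF1, the inhibitor that stops ATP synthase from running backwards, fell by 0.24 and 0.25 on the log2 scale. NDUFB4 and UQCR11, whose promoters are shown, fell by 0.26 and 0.36 in Palmul-tang and by 0.23 and 0.23 in Sibjeondaebo-tang, and the UQCR11 call in Sibjeondaebo-tang was lost on leaving out any 1 of its 6 libraries (adjusted p at least 0.0683).

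Fewer members were higher. ATP5F1A (chromosome 18, 46080248 to 46104334) had 263, 258 and 264 CPM in Palmul-tang and 263, 263 and 277 CPM in Sibjeondaebo-tang at 500 µg/mL, against 228, 233 and 238 CPM in vehicle. It rose by 0.17 ± 0.038 (adjusted p = 0.000789) and 0.20 ± 0.038 (adjusted p = 0.000107). ATP5PO (chromosome 21, 33903453 to 33915980), in the peripheral stalk, had 110, 115 and 115 CPM and 112, 110 and 123 CPM, against 102, 104 and 101 CPM in vehicle (0.15 ± 0.039 and 0.17 ± 0.038). It shares 655 exon bases with AP000311.1 on its own strand and 300 with LINC00649 on the opposite one. The partner of ATP5F1A in the head, ATP5F1B, had 443, 454 and 454 CPM in Palmul-tang and 449, 456 and 483 CPM in Sibjeondaebo-tang, against 437, 451 and 451 CPM in vehicle, and was not called (0.01 ± 0.034 and 0.05 ± 0.034). UQCRB and ATP5MPL rose in Palmul-tang and NDUFB2, COX6C and NDUFS4 in Sibjeondaebo-tang. Except for NDUFB2, each of these calls was lost when certain single libraries were left out. For UQCRB these were vehicle replicate 3 and Palmul-tang replicates 1 and 2, and for ATP5MPL vehicle replicates 1 and 3 and Palmul-tang replicate 2, with adjusted p from 0.0529 to 0.0730. For COX6C they were vehicle replicates 1 and 3 and Sibjeondaebo-tang replicate 1, and for NDUFS4 all but vehicle replicate 2, with adjusted p from 0.0663 to 0.174.

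By role, the calls against vehicle lay in several complexes. Of all genes, 12.9% were higher and 14.9% lower in Palmul-tang, and 11.7% and 13.3% in Sibjeondaebo-tang. In complex I, 4 of 7 nuclear core subunits fell in Palmul-tang and 2 in Sibjeondaebo-tang, and of the 29 accessory subunits 10 fell in each, with 0 and 2 higher. Of the 4, 3 were lost without vehicle replicate 2, among them NDUFS3 and NDUFS7, core subunits named for that reason after their values were seen. NDUFS3 (-0.15 ± 0.057, adjusted p = 0.0478) was lost on leaving out any 1 of its 6 libraries, with adjusted p from 0.0505 to 0.160. NDUFS7 fell in Palmul-tang (-0.21 ± 0.058, adjusted p = 0.00745, 0.0568 without vehicle replicate 2) and in Sibjeondaebo-tang (-0.18 ± 0.058, adjusted p = 0.0195). There it was lost without vehicle replicate 2 or Sibjeondaebo-tang 500 replicate 1 or 2, with adjusted p from 0.109 to 0.125. NDUFV1 fell in Palmul-tang (-0.16 ± 0.044, adjusted p = 0.00600), not without vehicle replicate 2 (adjusted p = 0.0505), and stood at -0.08 ± 0.044 in Sibjeondaebo-tang, where it was called without replicate 3 (-0.13, adjusted p = 0.0210). NDUFS1 was called in neither (0.05 ± 0.039 and 0.10 ± 0.039). In complex II, SDHA fell in Palmul-tang (-0.14 ± 0.032, adjusted p = 0.000928) and stood at -0.08 ± 0.032 in Sibjeondaebo-tang (adjusted p = 0.0669, 0.0429 without replicate 3). SDHD fell in Palmul-tang (-0.14 ± 0.051, adjusted p = 0.0311), where its groups overlapped and the call was lost without vehicle replicate 1 or 3 or Palmul-tang 500 replicate 1 or 2 (adjusted p from 0.0894 to 0.167), and stood at -0.12 ± 0.050 in Sibjeondaebo-tang (adjusted p = 0.0725). SDHB, the iron-sulfur subunit, was called in neither. In complex III, 1 gene was higher and 4 lower of 9 in Palmul-tang, and 0 and 3 in Sibjeondaebo-tang, and UQCRC1 was called in neither. UQCRH, a complex III gene named after its values were seen, was among those lower in Sibjeondaebo-tang. That call was lost on leaving out any library but vehicle replicate 3 (adjusted p from 0.0771 to 0.196). In complex IV, 3 and 2 of 14 fell, not far from the share of all genes called lower. COX4I1, the main regulatory subunit, was called in neither (-0.02 ± 0.037 and 0.05 ± 0.037). In complex V, 3 genes were higher and 7 lower of 20 in Palmul-tang, and 2 and 5 in Sibjeondaebo-tang. The readthrough gene ATP5MF-PTCD1 was among the 7. In Sibjeondaebo-tang without 500 replicate 3, the counts were 2 higher and 16 lower in complex I, 0 and 1 in II, 0 and 1 in III, 1 and 3 in IV and 2 and 5 in V.

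**Figure D3:**
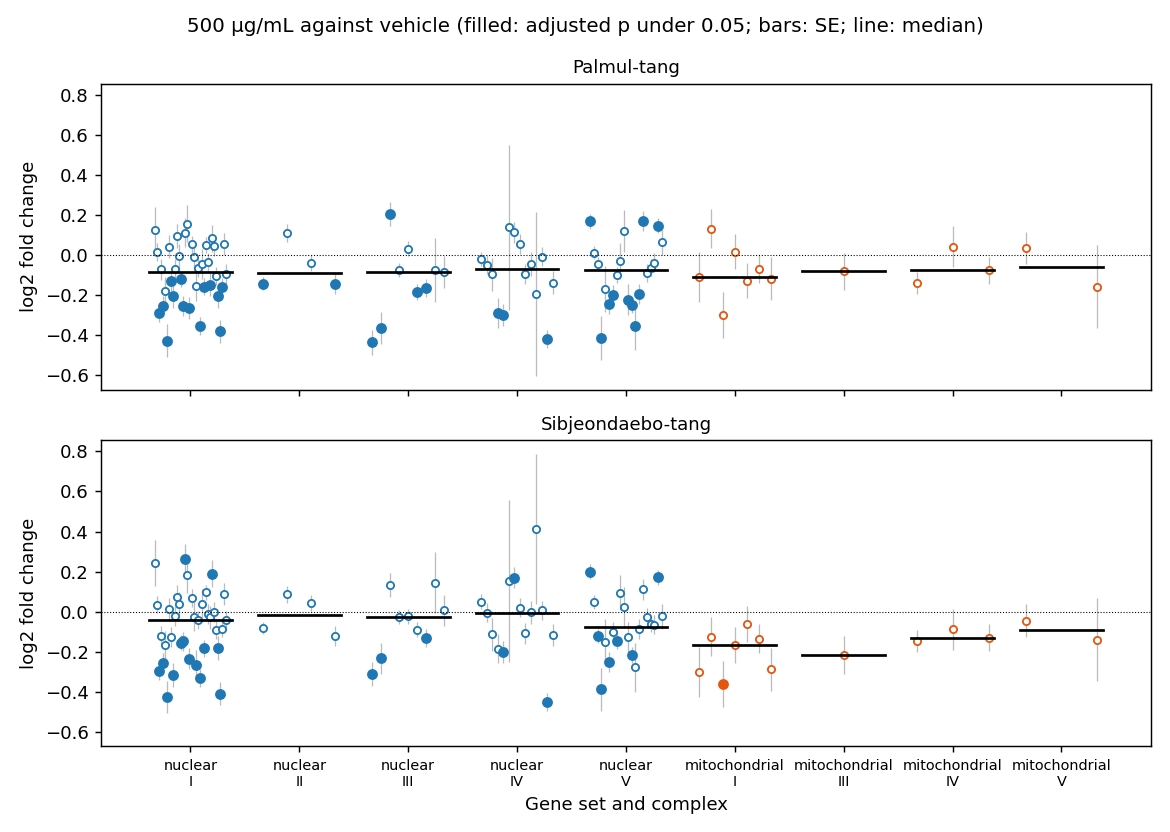
Log2 fold change at 500 µg/mL against vehicle for each tested gene, by set and complex, in Palmul-tang (top) and Sibjeondaebo-tang (bottom). Filled points passed an adjusted p of 0.05, grey bars are standard errors and black lines medians. Most filled nuclear points lie below 0, 30 against 4 in Palmul-tang and 22 against 5 in Sibjeondaebo-tang, and only 1 mitochondrial point is filled.

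Genes far from vehicle could have no call between doses. COX8A had group means of 192 ± 11.4 CPM in vehicle, 142 ± 4.72 at 20 and 144 ± 3.68 at 500 µg/mL of Palmul-tang, and 141 ± 0.751 at 20 and 141 ± 12.3 at 500 µg/mL of Sibjeondaebo-tang (SD, n = 3 each), so that its value at 500 against 20 was 0.02 ± 0.045 and 0.00 ± 0.045. In single libraries at 20, 100 and 500 µg/mL it had 134, 147 and 135 CPM in Samul-tang, 144, 137 and 139 CPM in Poria Cocos and 140, 155 and 155 CPM in Atractylodis Rhizoma, all below the lowest vehicle library of 181 CPM. NDUFS8 and ATP5F1A likewise had no call between doses with all libraries, and NDUFS8 had the one given without Sibjeondaebo-tang 500 replicate 3. At 20 µg/mL against vehicle, Palmul-tang had 11 higher and 22 lower nuclear genes and Sibjeondaebo-tang 6 and 29, where 23.8% of all genes were called in each (10.5% higher, 13.3% lower). At 100 µg/mL it was 6 and 22 in Palmul-tang (23% of all genes, 10.2% higher and 12.8% lower) and 9 and 23 in Sibjeondaebo-tang (24.6%, 11.3% higher and 13.3% lower). Without Sibjeondaebo-tang 100 replicate 1 it was 8 and 21 there, with 20.9% of all genes called. For the mean of the 3 single libraries, it was 10 and 24 in Samul-tang, where 27.7% of all genes were called (12% higher, 15.7% lower). It was 10 and 27 in Poria Cocos (27.3%, 12.1% higher and 15.3% lower) and 12 and 20 in Atractylodis Rhizoma (27.7%, 12.4% higher and 15.3% lower). The scaling factors of the vehicle libraries were 0.96 to 0.971 and those of all treated libraries 0.991 to 1.017, and the part of this in the calls was not tested.

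Nuclear genes with GC-rich transcripts were lower against vehicle than GC-poor ones. Over the 83 nuclear genes the log2 fold change had a Pearson correlation with transcript GC content of -0.52 (Spearman -0.49) in Palmul-tang and -0.53 (-0.50) in Sibjeondaebo-tang at 500 µg/mL, as a description across genes, which are not replicates. Over all 10294 genes whose mean log2 CPM reached 3 it was -0.45 and -0.37. Of the 28 nuclear genes with the highest GC content, 53.5% to 69.6%, 20 fell and 0 rose in Palmul-tang and 15 fell and 0 rose in Sibjeondaebo-tang. Of the 28 with the lowest, 36.4% to 45.4%, 5 fell and 1 rose in Palmul-tang and 3 fell and 3 rose in Sibjeondaebo-tang. Without Sibjeondaebo-tang 500 replicate 3 the correlation there was -0.63 (-0.61), with 18 fallen and 0 risen of the GC-richest and 3 and 3 of the GC-poorest. After a trend of GC content and length was removed from each library, 5 genes were higher and 27 lower in Palmul-tang and 8 and 20 in Sibjeondaebo-tang. Between 500 and 20 µg/mL the correlation with GC content was 0.35 in Palmul-tang. In Sibjeondaebo-tang it was 0.18 with all libraries and -0.24 without Sibjeondaebo-tang 500 replicate 3, so that its sign rests on that library.

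**Figure D4:**
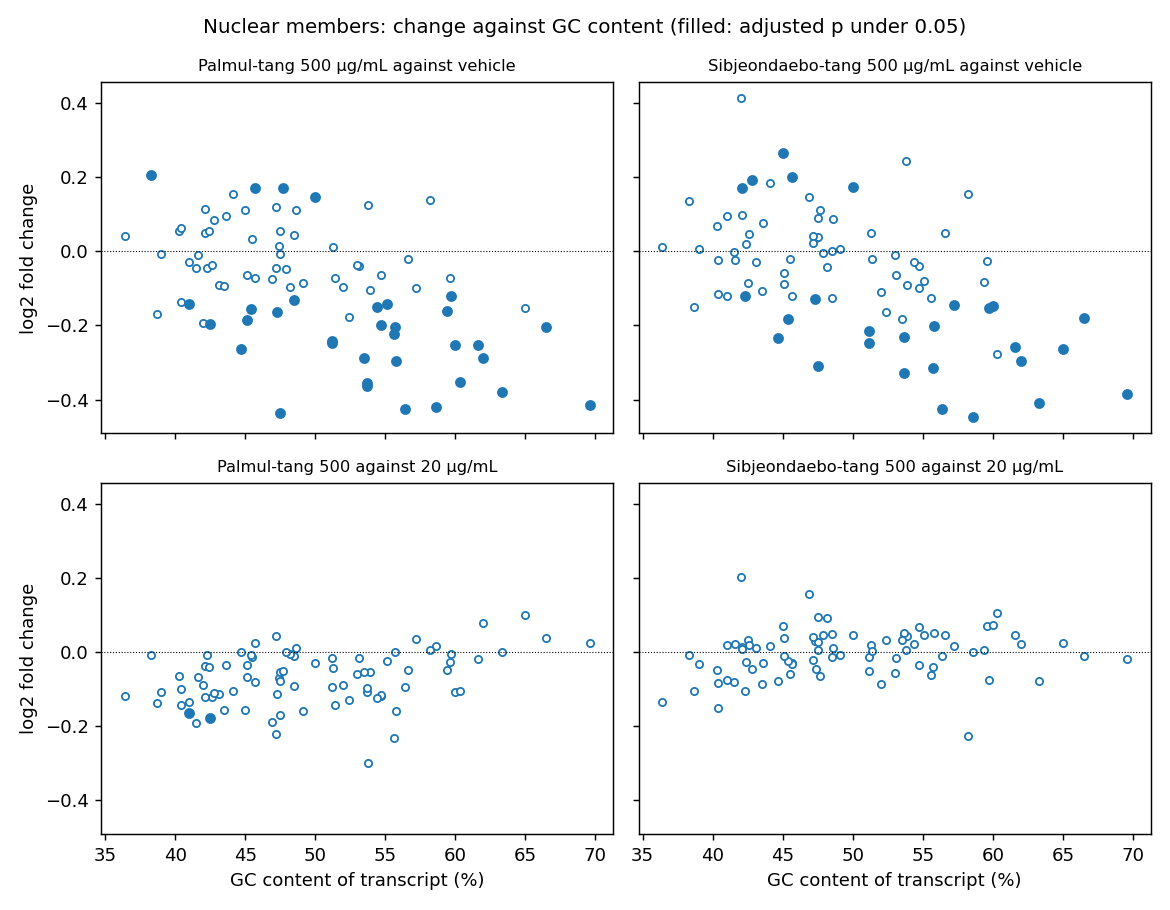
Log2 fold change of the 83 tested nuclear genes (vertical axis) against the GC content of their transcripts (%, horizontal axis), at 500 µg/mL against vehicle (top) and 500 against 20 µg/mL (bottom), in Palmul-tang (left) and Sibjeondaebo-tang (right). Filled points passed an adjusted p of 0.05. In the top panels the points fall to the right, with correlations of -0.52 and -0.53.

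Mitochondrial genes were seldom called against vehicle. In Palmul-tang 0 of 13 were called at 20, 100 or 500 µg/mL, and at 500 µg/mL 4 were above 0 and the median was -0.08. MT-CO1 and MT-ND3 had an unadjusted p under 0.05 at 500 µg/mL, and by DESeq2 MT-ND3 was called (adjusted p = 0.0367). Without vehicle replicate 2 both were called. In Sibjeondaebo-tang at 500 µg/mL all 13 log2 fold changes were below 0, with a median of -0.14. Of these, 5 had an unadjusted p under 0.05, with no share of all genes beside that count. At that dose 1 was called, where 13.3% of all genes were lower. MT-ND3 (chromosome M, 10059 to 10404), a small complex I core subunit, had 1286, 1365 and 1214 CPM there, against 1743, 1415 and 1797 CPM in vehicle. The groups did not overlap, and the log2 fold change was -0.36 ± 0.115 (adjusted p = 0.0338). The call was lost without vehicle replicate 1 or 3 or Sibjeondaebo-tang 500 replicate 1 or 3, with adjusted p between 0.0815 and 0.133, and with no filter on low counts (adjusted p = 0.0725). Without vehicle replicate 2 or Sibjeondaebo-tang 500 replicate 2 the count was 3. At 100 µg/mL MT-ND6, MT-ND3 and MT-CYB were called lower, with log2 fold changes of -0.39, -0.39 and -0.27, and without Sibjeondaebo-tang 100 replicate 2 or 3 or vehicle replicate 1 none of the 13 was. The count was 1 without vehicle replicate 3 and 11 without Sibjeondaebo-tang 100 replicate 1, the library that stood apart, with the median at -0.31 and all 13 below 0. Of all genes, 13.3% were called lower at 100 µg/mL with all libraries. The share called lower without Sibjeondaebo-tang 100 replicate 1 is not given here, so the 11 have no like background beside them. At 20 µg/mL 0 were called.

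The mean of 3 doses of each single-library extract was also set against vehicle, and 2 to 6 of 13 mitochondrial genes were called. These counts cannot be ranked against those of the formulas, which carry another code and were tested by single dose. In Atractylodis Rhizoma 6 of 13 fell, where 15.3% of all genes did, and the median was -0.23. MT-ND6 had 268, 289 and 289 CPM at 20, 100 and 500 µg/mL, against 418, 409 and 372 CPM in vehicle, a log2 fold change of -0.50 ± 0.108 (adjusted p = 0.00257). MT-ND3 had 1130, 1295 and 1197 CPM, a log2 fold change of -0.46 ± 0.116 (adjusted p = 0.00818). MT-CYB, MT-ATP6, MT-ATP8 and MT-ND5 were called with adjusted p from 0.0342 to 0.0441. In Poria Cocos 5 fell, where 15.3% of all genes did, with a median of -0.22, led by MT-ND6, with 292, 298 and 302 CPM (-0.43 ± 0.108, adjusted p = 0.00812), followed by MT-ATP6, MT-CO1, MT-ND3 and MT-CYB with adjusted p from 0.0244 to 0.0489. In Samul-tang MT-CO1 and MT-ND3 fell (-0.19 ± 0.055 and -0.39 ± 0.115), 2 of 13 where 15.7% of all genes did. On leaving out single libraries the MT-ND6 calls of both herbs and the MT-ND3 call of Atractylodis Rhizoma were kept, and every other call was lost with at least 1 library left out. In Atractylodis Rhizoma the count was 2 without vehicle replicate 3 or its 20 or 500 µg/mL library, and 3 without vehicle replicate 1. In Poria Cocos it was 1 without vehicle replicate 1 or 3, 2 without its 20 or 100 µg/mL library, and 7 without vehicle replicate 2. In Samul-tang it was 0 without vehicle replicate 1 or 3, 1 without its 20 or 100 µg/mL library, 3 without vehicle replicate 2 and 4 without its 500 µg/mL library. No mitochondrial gene was called higher than vehicle in the comparisons that were run, each dose of the 2 formulas and the mean of 3 doses of the other extracts. Single doses of those extracts were not tested.

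**Figure D5:**
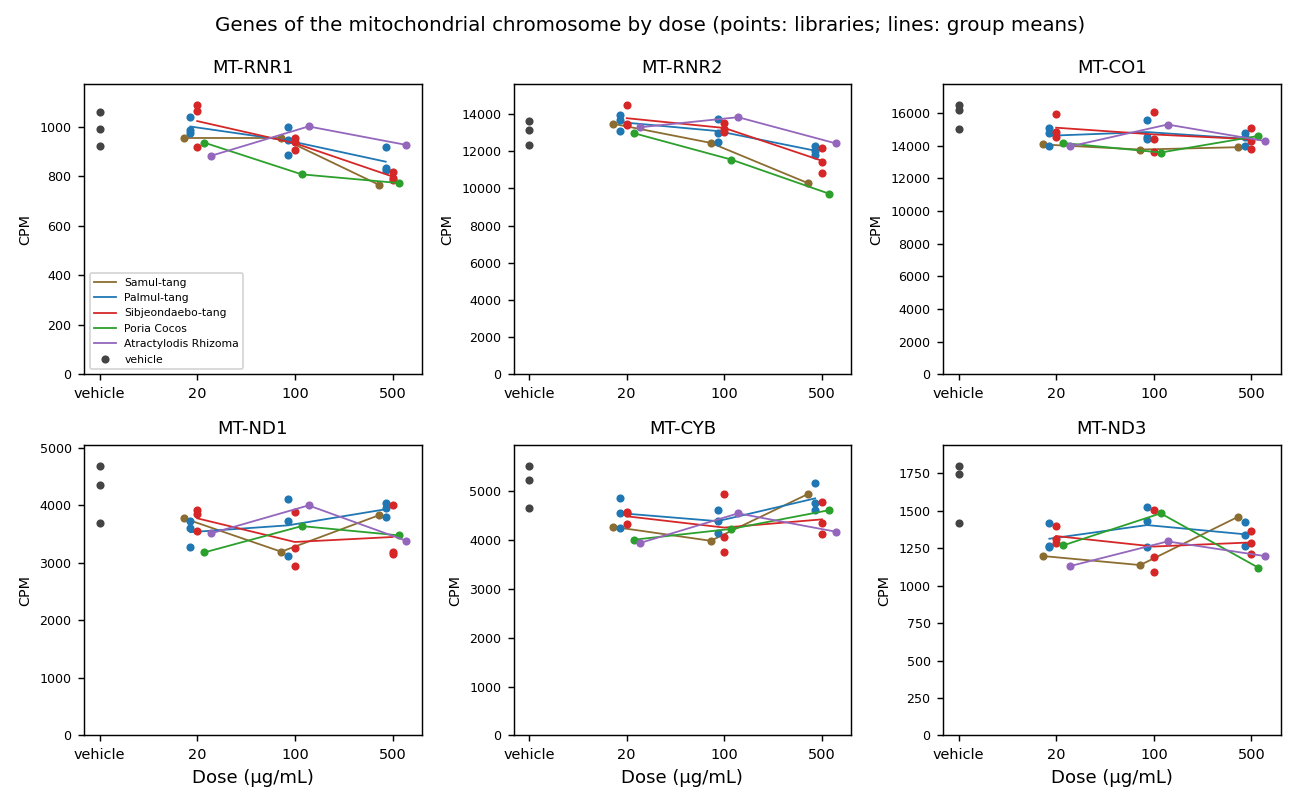
CPM (vertical axes from 0) of the 2 ribosomal RNA genes and of 4 protein genes of the mitochondrial chromosome by dose in µg/mL, with vehicle at the left. Points are libraries and lines join group means of each extract. MT-RNR2 is lower at 500 than at 20 µg/mL of Palmul-tang and Sibjeondaebo-tang and MT-RNR1 of Sibjeondaebo-tang, while MT-CO1, MT-ND1, MT-CYB and MT-ND3 have 0 calls between these doses.

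Related gene lists were counted the same way. Between 500 and 20 µg/mL, where 5.3% of all genes were called in Palmul-tang and 6.24% in Sibjeondaebo-tang, 0 of 48 assembly factors were called in either formula, and 1 (NDUFAF3, named after its value was seen) in Sibjeondaebo-tang without its 500 replicate 3. Of 26 genes of mitochondrial transcription and DNA upkeep, 1 rose in Palmul-tang (PRORP, which cuts transfer RNAs out of the mitochondrial transcripts, 54.9 ± 1.48 CPM at 500 and 48.8 ± 1.45 CPM at 20 µg/mL) and 0 in Sibjeondaebo-tang. Of 14 regulators, MYC, HIF1A and PPRC1, a relative of the coactivator PGC-1, rose in Palmul-tang. In Sibjeondaebo-tang MYC and HIF1A rose and PPARGC1A, which encodes PGC-1 alpha itself, fell to 1.23 ± 0.0274 CPM at 500, against 1.93 ± 0.161 CPM at 20 µg/mL. On leaving out Sibjeondaebo-tang 500 replicate 3, HIF1A kept its call and MYC (adjusted p = 0.132) and PPARGC1A (adjusted p = 0.0967) lost theirs. Of 19 genes of the citric acid cycle and pyruvate dehydrogenase, OGDH, part of the oxoglutarate dehydrogenase complex, rose in both (0.20 ± 0.038 and 0.23 ± 0.038). Of 13 chaperones and proteases, 0 were called. Of 5 respiratory chain genes outside the symbol rule, HCCS, which attaches heme to cytochromes c, rose in Sibjeondaebo-tang (0.15 ± 0.040).

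Against vehicle, where 27.8% of all genes were called in Palmul-tang and 25.1% in Sibjeondaebo-tang, the same lists held calls both ways. Assembly factors had 7 higher and 5 lower of 48 in Palmul-tang and 2 and 3 in Sibjeondaebo-tang at 500 µg/mL, with COX20, a complex IV assembly factor, lower in both (-0.28 ± 0.046 and -0.37 ± 0.046). Mitochondrial transcription and upkeep genes had 6 higher and 2 lower of 26 in each. LRPPRC, which stabilises mitochondrial messenger RNAs, rose to 205 ± 2.20 CPM in Palmul-tang and 205 ± 8.48 CPM in Sibjeondaebo-tang, against 182 ± 1.34 CPM in vehicle. NRF1 fell to 16.1 ± 0.191 CPM and 16.3 ± 0.959 CPM, against 19.3 ± 1.15 CPM in vehicle, among 2 higher and 2 lower of 14 regulators in each. Citric acid cycle genes had 1 higher and 4 lower of 19 and 1 and 3, with MDH2, the malate dehydrogenase, at -0.18 ± 0.032 and -0.22 ± 0.032. Chaperones and proteases had 3 and 2 of 13 and 2 and 3. CYC1, the cytochrome c1 of complex III, fell in both (-0.18 ± 0.044 and -0.13 ± 0.044). Mitochondrial ribosomal proteins had 9 higher and 24 lower of 78 in Palmul-tang and 4 and 23 in Sibjeondaebo-tang, and cytosolic ribosomal proteins 4 and 42 of 83 and 4 and 36. Without Sibjeondaebo-tang 500 replicate 3, where 29% of all genes were called, the counts there were 2 higher and 6 lower for assembly factors, 6 and 4 for mitochondrial transcription and upkeep, 3 and 2 for regulators, 2 and 3 for the citric acid cycle and 3 and 3 for chaperones and proteases. For mitochondrial ribosomal proteins they were 5 and 24, and for cytosolic ones 5 and 36.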

How the data were processed

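RNA of 30 libraries was sequenced. Per the labels' protocols, RNA with an integrity number above 7 went into MGIEasy RNA Directional libraries. Per the submitters' processing notes, the authors used FastQC 0.11.9, Trim Galore 0.6.5, STAR 2.7.3a and RSEM 1.3.3. What they deposited is a table of expected counts, with 24.0% of nonzero values not whole. Annotation release and counting strand are not given in the sources used here. Of 279 sample columns, 249 match no sample here and were not used.

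After rounding, 17839 genes passing filterByExpr were fitted in edgeR 4.0.16 (R 4.3.3, TMM, 1 mean per group over all libraries). Groups of 1 library borrow the spread of the others. Contrasts used the quasi-likelihood test with Benjamini-Hochberg adjustment. CPM are scaled by TMM. Symbols and transcript lengths came from GENCODE release 29. The fit was tested on simulated data. Named genes are the 13 mitochondrial genes, up to 6 called nuclear members each way by smallest p per main contrast, 14 fixed members and up to 4 called genes each way per list. Members and lists were chosen with earlier results of these data known. Alternatives included DESeq2 1.42.0, other filters, scalings and samples, and each library left out.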

Additional observations from a re-analysis of the deposited data

How the results depend on the processing

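With 500 against 20 µg/mL of Palmul-tang, the 2 nuclear calls became 10 with no filter on low counts, 4 with the GC and length trend removed, 9 in a fit of the compared groups and 4 by DESeq2's Wald test, all lower, and 0 to 10 with single libraries left out (0 without Palmul-tang 20 replicate 1 or 3, 10 without replicate 2). The 0 mitochondrial calls became 2 in a fit of the compared groups and stayed 0 on leaving out libraries. In Sibjeondaebo-tang the 0 nuclear calls became 1 under the replicate block, 1 by DESeq2 and 0 to 2 with libraries left out. For Palmul-tang against vehicle, the mitochondrial calls became 1 with no filter, 3 in a fit of the compared groups, 1 by DESeq2 and 0 to 2 with libraries left out, and the nuclear calls ran from 28 to 33 with libraries left out. For Sibjeondaebo-tang against vehicle, the 1 mitochondrial call became 4 in a fit of the compared groups, 2 by DESeq2 and 0 to 3 with libraries left out, and the nuclear calls ran from 20 to 31. NDUFB10 in Palmul-tang against vehicle turned to 0.021 (adjusted p = 0.73) with the GC and length trend removed. The causes were not tested. Same-numbered libraries deviated together with correlations of -0.079 to 0.179. With groups of 3 libraries these values cannot settle whether the numbers pair the samples. Under the replicate block the 2 nuclear calls of the Palmul-tang dose comparison remained 2 in number, and ATP5MG was not among them (adjusted p = 0.0637). Of the values of named genes under other settings, 1206 kept their side of the threshold, 64 lost their call, 16 gained one and 1 with a call reversed. A change of sign with a call in neither fit was counted as kept. There were 23 of these among 780 uncalled values compared, with libraries left out included. The settings moved the median log2 fold change of all genes by at most 0.008. Scaling itself holds this median near 0, so it does not measure how far the settings agree. With groups of 3 or 1 libraries, the typical 95% interval of a mitochondrial gene was ± 0.18 on the log2 scale between doses of Palmul-tang.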

Other observations

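The ribosomal RNA genes of the mitochondrial chromosome, which the symbol rule leaves out, were lower at 500 than at 20 µg/mL, MT-RNR2 in both formulas and MT-RNR1 in Sibjeondaebo-tang. Of all genes, 2.47% were called lower between these doses in Palmul-tang and 2.79% in Sibjeondaebo-tang. MT-RNR2, the large ribosomal RNA, had 12030 ± 254 CPM at 500 and 13560 ± 449 CPM at 20 µg/mL of Palmul-tang, and 11480 ± 675 and 13770 ± 607 CPM in Sibjeondaebo-tang (SD, n = 3 each). Its log2 fold changes were -0.17 ± 0.042 (adjusted p = 0.00988) and -0.26 ± 0.042 (adjusted p = 7.11e-05) by edgeR. In Palmul-tang the call was lost without Palmul-tang 500 replicate 2 (adjusted p = 0.0648), without Palmul-tang 20 replicate 2 (adjusted p = 0.0596) and with the GC and length trend removed (adjusted p = 0.0603). MT-RNR1, the small ribosomal RNA, had 783, 818 and 794 CPM at 500, against 1062, 918 and 1086 CPM at 20 µg/mL of Sibjeondaebo-tang (-0.36 ± 0.063, adjusted p = 0.00121), and -0.22 ± 0.063 in Palmul-tang (adjusted p = 0.0508, 0.0154 by DESeq2, and 0.0206 without Palmul-tang 500 replicate 3). In Sibjeondaebo-tang without 500 replicate 3, both calls held, with -0.22 for MT-RNR2 (adjusted p = 0.00224) and -0.35 for MT-RNR1 (adjusted p = 0.0108). The single libraries had 13475, 12446 and 10273 CPM of MT-RNR2 at 20, 100 and 500 µg/mL of Samul-tang, 12972, 11549 and 9719 CPM in Poria Cocos and 13288, 13826 and 12421 CPM in Atractylodis Rhizoma. Vehicle libraries had 13626, 12306 and 13139 CPM. The difference between the changes of these genes and of the mitochondrial protein genes was not tested.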
